A study of Homo sapiens with 47 samples.

Results

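The Hedgehog pathway genes *SHH*, *PTCH1*, *SMO*, *GLI1*, *GLI2*, *GLI3*, *HHIP*, *BOC* and *GAS1* were followed through the in vitro course from human embryonic stem cells (hESCs) to pre-neural progenitors (PNPs) and neural crest (NC). They are 9 of the 58051 genes listed for each library, were chosen by name as core components of the pathway, and were found through their Ensembl identifiers in all 47 libraries. The cells were WA09 (H9), an established hESC line, and each of 3 differentiations (r1 to r3) gave undifferentiated cells in mTESR1 (t0), neuromesodermal progenitor (NMP)-like cells after 36 h and cultures of passages P1 to P10, with only r1 and r2 at P9. After t0 all cultures were in N2B27 without vitamin A, with CHIR-99021 to activate WNT signaling, rhFGF2, the retinoic acid receptor inverse agonist AGN193109 and the ROCK inhibitor Y-27632, and no Hedgehog ligand or agonist is listed for these samples. At P5 and P8, fractions enriched for epithelial (EPI, PNP) or mesenchymal (MES, NC) cells were obtained by selective detachment rather than by sorting, so each fraction can hold cells of the other kind. All samples come from 1 cell line, and r1 to r3 are repeats of 1 protocol in it.

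Hedgehog signaling is started by a secreted ligand such as SHH, which in the embryo is made by the notochord and floor plate and patterns the neural tube. PTCH1 is the receptor that holds SMO inactive until ligand binds, BOC and GAS1 are co-receptors, and GLI1, GLI2 and GLI3 are the transcription factors at the end of the pathway, of which GLI3 is known mainly as a repressor and GLI1 as an activator. *PTCH1*, *HHIP* and *GLI1* are transcriptional targets of the pathway in many tissues, and PTCH1 and HHIP limit it in turn, since the HHIP protein binds and holds back the ligand. The question addressed to these samples was whether *HHIP* followed the other readouts of the pathway by time point and by fraction.

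In GENCODE 29 on GRCh38, *PTCH1* lies on the minus strand at chr9:95442980-95517057, *HHIP* on the plus strand at chr4:144646021-144745271 and *GLI1* on the plus strand at chr12:57460135-57472262. *GLI2* is on the plus strand at chr2:120735623-120992653 and *GLI3* on the minus strand at chr7:41960950-42237870. *SHH* is on the minus strand at chr7:155799986-155812273 and *SMO* on the plus strand at chr7:129188872-129213545. *BOC* is on the plus strand at chr3:113211003-113287459 and *GAS1* on the minus strand at chr9:86944363-86947189. Promoter windows of RefSeq (GRCh38.p14) were matched for 7 of the 9 genes by symbol, with no window for *GLI1* and *GLI3*. They were searched on both strands for the GLI-binding consensus GACCACCCA (TGGGTGGTC on the other strand) and for the last 7 of these letters, CCACCCA, here called the core. The consensus was in 83 of 35116 windows of the same length (0.236%) and, among the 7 genes, only in the first window of *PTCH1*. The core was in 3227 windows (9.19%), those of *PTCH1* and *GLI2* included, and neither set of letters was in the window of *HHIP*. The 250 bases before the start of transcription are shown for these 3 genes, 5′ to 3′ on the strand of the gene, because *PTCH1* and *HHIP* are the targets whose levels are compared here and *GLI2* is the other gene with the core. Capitals mark the consensus in *PTCH1* (chr9:95509267-95509516, minus strand, first base of the match at position -172 from the start) and the core, read as its reverse complement, in *GLI2* (chr2:120735618-120735867, plus strand, position -164), and *HHIP* (chr4:144645906-144646155, plus strand) has no capitals.
PTCH1: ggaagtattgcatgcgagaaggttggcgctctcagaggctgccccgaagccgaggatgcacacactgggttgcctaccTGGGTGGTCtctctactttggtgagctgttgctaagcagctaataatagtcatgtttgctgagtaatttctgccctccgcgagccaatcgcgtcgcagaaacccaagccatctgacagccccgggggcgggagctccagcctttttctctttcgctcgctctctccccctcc
GLI2: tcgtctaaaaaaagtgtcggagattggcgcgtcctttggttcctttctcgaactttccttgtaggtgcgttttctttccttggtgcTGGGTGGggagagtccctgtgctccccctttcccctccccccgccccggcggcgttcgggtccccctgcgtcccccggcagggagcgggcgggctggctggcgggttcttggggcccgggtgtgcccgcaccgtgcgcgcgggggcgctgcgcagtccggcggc
HHIP: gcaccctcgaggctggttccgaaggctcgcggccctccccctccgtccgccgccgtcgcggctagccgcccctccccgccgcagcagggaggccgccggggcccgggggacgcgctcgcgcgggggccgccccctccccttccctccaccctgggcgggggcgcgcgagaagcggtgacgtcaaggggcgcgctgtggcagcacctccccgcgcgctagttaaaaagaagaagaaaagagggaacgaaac
A match of letters is a description of the sequence, not a binding site, and the absence of one concerns this window alone. The *PTCH1* window with the match stands before 1 of 5 RefSeq start sites of the gene. The RefSeq start of *HHIP* (position 144646156 of chromosome 4) is 137 bases from that of *HHIP-AS1* (position 144646019), a noncoding RNA on the opposite strand, so the bases shown for *HHIP* overlap the window of both.

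The libraries held between 13029491 and 64082859 expected counts, with a median of 47292229. Levels are given as TPM, which corrects for gene length and depth, and differences as log2 fold changes of counts normalized by edgeR's TMM factors. The test was the quasi-likelihood F-test of edgeR, blocked by differentiation, with p-values adjusted over all tested genes by the method of Benjamini and Hochberg. A gene passed where the false discovery rate (FDR) was under 1%, the fold was 2 or more and the compared libraries averaged 100 normalized counts or more. Of the defining hESC markers, *POU5F1* and *NANOG* together had 1662 to 1854 TPM at t0 and at most 0.15 TPM at P9 and P10. In bulk RNA, fewer cells of a type and less RNA per cell cannot be told apart.

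No Hedgehog ligand was detected at an appreciable level in any library. *SHH* had at most 0.28 TPM or 17 counts, had 3 counts or fewer in 42 of the 47 libraries and had none in 21. By normalized count its 4 highest libraries were the 3 of P1, with 11.05 to 19.8 normalized counts (7 to 16 counts as deposited), and P3.r1 with 16.3 (17 counts). *IHH*, the ligand known from cartilage and gut, had at most 10 counts in any library, and *DHH*, known from Schwann cells and the gonad, had at most 5. Neither was kept by the filter on low counts, and *SHH* lay under the minimum of 100 normalized counts, so it could not pass. Its lowest adjusted p was at P1 against 36 h, with means of 15.1 (SD 4.44) and 1.20 (SD 1.23) normalized counts, n = 3 each, higher in 3 of 3 differentiations (edgeR adjusted p = 0.0421). Of 5 notochord or floor plate markers, *NOTO*, *FOXA1* and *FOXA2* had 3 counts or fewer in every library of P9, P10 and the 4 fraction groups, and the sum of the 5 was at most 67.0 TPM in the fractions. At 36 h none of the 5 was that low in every library, and at P1 and P2 only *NOTO* was. The sum was between 3.59 and 5.09 TPM at t0 and between 30.5 and 68.3 TPM at P8, and *SPON1*, a secreted floor plate protein, rose at 36 h (log2 2.75, SE 0.66, edgeR adjusted p = 0.00679), at P5 (3.78, SE 0.68, adjusted p = 8.67e-05) and at P8 (4.45, SE 0.70, adjusted p = 1.6e-05) against t0. Of the 4 markers tested only *SPON1* was positive at P5 and at P8 against t0, and *NOTO*, *FOXA2* and *FOXJ1* had lower values than at t0 without passing, 2 of the 3 (*NOTO* and *FOXA2*) with an adjusted p under 0.05. The part of such cells in the levels of *PTCH1* and *HHIP* was not tested. HHAT and DISP1, which attach a lipid to the ligand and release it, were nonetheless measurable. *HHAT* rose at 36 h against t0 by 1.78 (log2, SE 0.21, edgeR adjusted p = 4.22e-06), from a mean of 48.4 to 163.8 normalized counts (SD 11.3 and 15.9, n = 3 each).

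**Figure D1:**
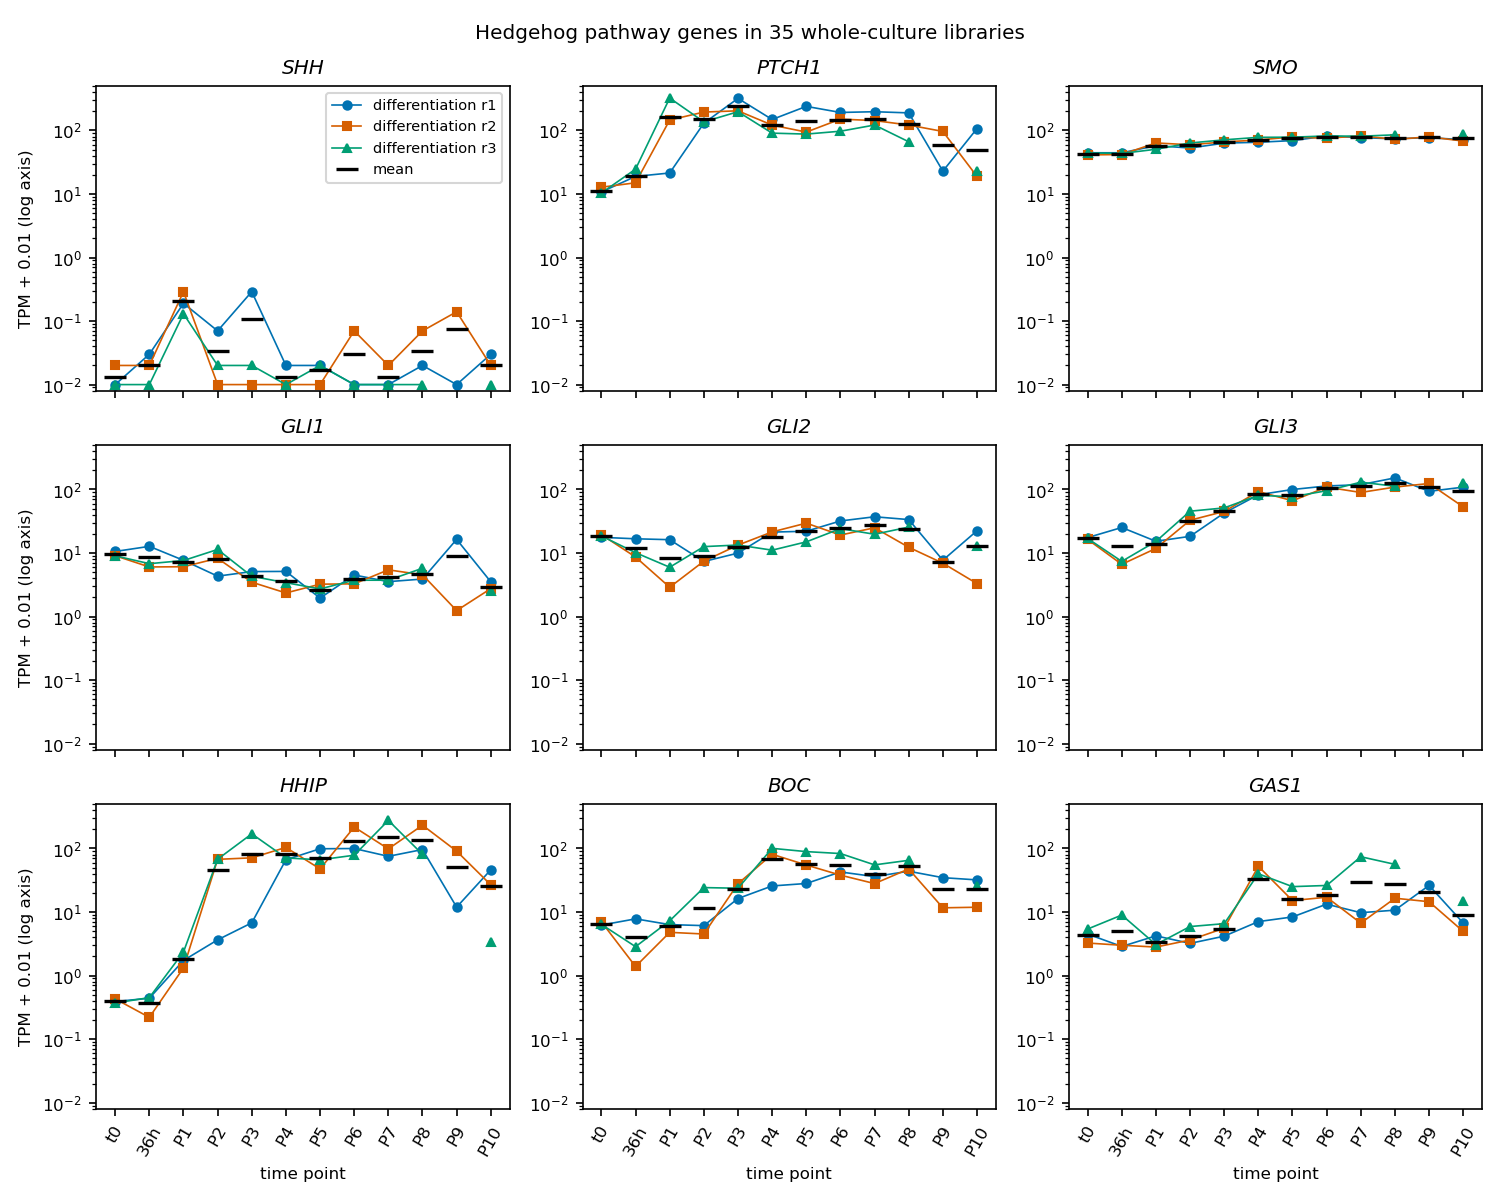
Levels of the 9 genes as TPM + 0.01 on a log axis, by time point, in the 35 whole-culture libraries; symbols joined by lines are the differentiations r1 to r3 and black bars the means. *SHH* stays at or under 0.28 TPM, *PTCH1* and *HHIP* climb between 36 h and P3, and *GLI1* has its lowest means at P5 and P10.

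The receptor gene *PTCH1* was the first of the 9 to pass the test. It had 10.8, 12.8 and 10.3 TPM in r1, r2 and r3 at t0 and 18.9, 15.0 and 24.6 TPM at 36 h. At P1 it had 21.4, 146 and 323 TPM, so that r1 lay within the range of 36 h while r2 and r3 lay far above it. By P2 the values were 130, 194 and 136 TPM and at P3 they were 319, 203 and 197 TPM, all above every library of 36 h. From P4 to P8 the 15 libraries ranged from 66.3 TPM (P8.r3) to 239 TPM (P5.r1) and all lay above every library of t0 and 36 h. In edgeR's test *PTCH1* rose at P2 against 36 h by 3.10 (log2, SE 0.70, adjusted p = 0.00249). A comparison of P1 with 36 h, added after the values were seen, gave 3.33 (SE 0.71, edgeR adjusted p = 0.00558), and only *PTCH1* of the 9 genes passed there, where 1.19% of all genes tested passed and 0.492% rose. That P1 call was lost without r2 (adjusted p = 0.220), without r3 (adjusted p = 0.188) and in a fit of these groups alone (adjusted p = 0.286).

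*HHIP* first passed the test at P2. It had 0.38, 0.42 and 0.36 TPM at t0 in r1 to r3, and 0.43, 0.21 and 0.44 TPM at 36 h. At P1 it had 1.72, 1.31 and 2.34 TPM, all above the earlier libraries, although the comparison of P1 with 36 h did not pass (log2 2.24, SE 1.25, adjusted p = 0.287). At P2 it had 3.64, 67.4 and 67.8 TPM and at P3 6.75, 71.3 and 170.1 TPM, with r1 far below r2 and r3 at both passages. At P4 it had 66.5, 104 and 71.1 TPM, so the 3 differentiations had come together. It stayed between 47.7 TPM (P5.r2) and 277 TPM (P7.r3) in the whole cultures from P4 to P8. At P2 against 36 h *HHIP* rose by 7.07 (log2, SE 1.32, edgeR adjusted p = 0.000469), from a mean of 17.6 (SD 11.9) to 2765 (SD 2239) normalized counts with n = 3 each.

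In all, 3 of the 9 genes rose at P2 against 36 h, *PTCH1*, *HHIP* and *GLI3*, where 5.5% of the 21750 genes tested passed and 2.6% rose. *GLI3* rose by 1.53 (log2, SE 0.34, edgeR adjusted p = 0.00219). Its log2 ratio was -0.17 in r1 and 2.49 in r2 and in r3. The fitted value was 2.51 without r1, 1.18 without r2 and 1.05 without r3. *SMO* had the same direction and an adjusted p of 0.000632, but its log2 difference was 0.45 (SE 0.09) and stayed under the fold change minimum. The median log2 fold change was 1.24 over the 9 genes, which is the value of the barely detected *SHH*, 0.99 over the other 8 and about 0 over all genes. The calls rest on few libraries. Without r2 the adjusted p was 0.0677 for *HHIP*, 0.110 for *PTCH1* and 0.119 for *GLI3*, and without r3 it was 0.0215, 0.0396 and 0.153, with the direction kept. In a fit of the P2 and 36 h libraries alone it was 0.104 for *HHIP*, 0.0321 for *PTCH1* and 0.222 for *GLI3*, so all 3 calls were lost there too.

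The lag of r1 ran beside the markers of earlier stages in the same libraries. *POU5F1* and *NANOG* summed to 890 TPM in P1.r1, against 18.8 TPM in P1.r2 and 5.07 TPM in P1.r3. The NMP-like markers *TBXT*, *TBX6* and *FST* summed to 321 TPM in P2.r1 against 88.6 and 104 TPM in r2 and r3, and at P3 to 171 TPM against 23.2 and 58.2 TPM. The sum of 5 limb or lateral plate markers (*PRRX1*, *TBX4*, *TBX5*, *HAND2* and *ALX4*) also rose later in r1. *TBX4* and *TBX5* had 3 counts or fewer in every library of P3 and P4, so the sums there rest on the other genes. At t0 the sum was at most 0.51 TPM. At P3 the sum was 8.71 TPM in r1 against 179 and 195 TPM in r2 and r3. At P4 it was 105.8, 355 and 349 TPM. *PRRX1* and *ALX4* passed as higher at P5 and at P8 against t0, where 14.3% and 15.4% of all genes passed. The part of these lists in the later rise of *HHIP* in r1 was not tested. Without r1, *HHIP* at P2 against 36 h was 8.33 on the log2 scale (edgeR adjusted p = 0.000241).

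Each differentiation was also set against its own t0, with a threshold of 10-fold that was chosen after the values were seen. *PTCH1* first reached it at P2 in r1 (12.9-fold) and at P1 in r2 (10.7-fold) and r3 (31.5-fold). *HHIP* first reached it at P2 in r1 (18.5-fold) and r2 (374.5-fold) and at P1 in r3 (13.9-fold), so it came after *PTCH1* in r2 and at the same time point in r1 and r3. The highest ratio to t0 was 29.7, 13.3 and 31.5 for *PTCH1* in r1 to r3, reached between P1 and P3. For *HHIP* it was 594, 1355 and 2446, reached at P5, P8 and P7. *HHIP* at t0 rested on a mean of 9.64 normalized counts, so these ratios carry a wide counting error. Their size also depends on the scale. In TPM the same libraries had 99.0, 232 and 277 against 0.38, 0.42 and 0.36 at t0, which gives smaller ratios.

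**Figure D2:**
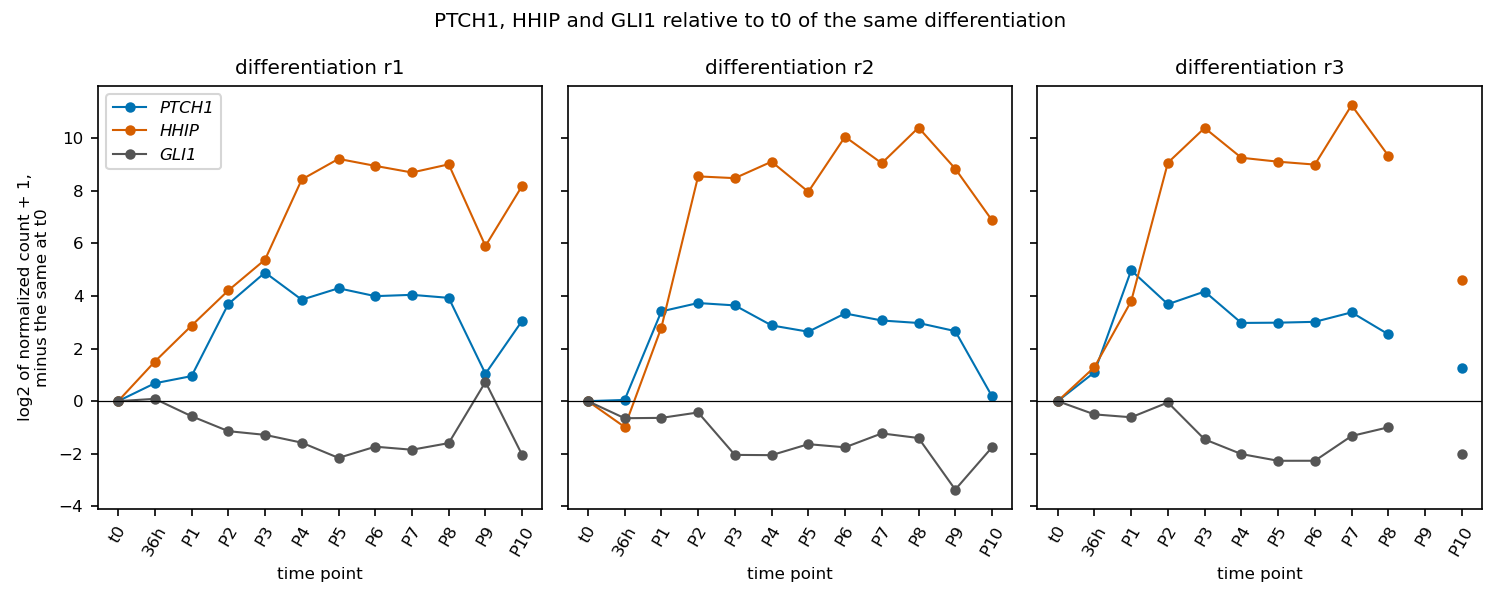
*PTCH1*, *HHIP* and *GLI1* in each differentiation as log2 of the normalized count divided by that at t0, by time point. Nothing was added to the counts, although the axis label reads + 1. *PTCH1* has its highest value between P1 and P3 and lies lower from P4 onward, while *HHIP* goes on to 594-fold, 1355-fold and 2446-fold above t0, and *GLI1* lies below t0 at every passage but P9 of r1.

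*GLI1* took the opposite course. It had 10.6, 9.05 and 9.02 TPM at t0, 12.7, 6.02 and 6.78 TPM at 36 h, and 4.31, 8.24 and 11.4 TPM at P2. At P5 it had 1.94, 3.22 and 2.71 TPM, below every library of t0, 36 h, P1 and P2. The step from P2 to P5 did not pass (log2 -1.50, SE 0.51, edgeR adjusted p = 0.0684), but passed without r1 (-1.67, adjusted p = 0.00181). Against t0, a comparison added after the values were seen, *GLI1* fell by 1.93 at P5 (log2, SE 0.51, edgeR adjusted p = 0.00348). At P8, with 3.88, 4.53 and 5.74 TPM, it was at -1.28 (SE 0.50, edgeR adjusted p = 0.0371) and did not pass. The P5 call against t0 was lost without r3 (adjusted p = 0.0905). Without r1, *GLI1* also passed as lower at P8 against t0 (log2 -1.16, edgeR adjusted p = 0.00282).

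In the same 2 added comparisons with t0, 5 of the 9 genes passed at P5 and 5 at P8, where 14.3% and 15.4% of all genes tested passed. At P5 6.44% of all genes rose and 7.85% fell, and at P8 7.66% rose. At P5 *PTCH1*, *HHIP*, *GLI3* and *BOC* rose and *GLI1* fell, and at P8 *PTCH1*, *HHIP*, *GLI3*, *BOC* and *GAS1* rose. *HHIP* was up by 9.03 (log2, SE 1.42, edgeR adjusted p = 1.85e-05) at P5 and by 9.74 (SE 1.45, adjusted p = 8.1e-06) at P8. *PTCH1* was up by 3.40 (SE 0.71, edgeR adjusted p = 0.000413) and 3.21 (SE 0.70, adjusted p = 0.000605). Thus of the 3 target genes *HHIP* and *PTCH1* stood above t0 at both passages while *GLI1* stood below it. The comparisons share the t0 libraries and are not independent of each other. Without r3, *PTCH1* (edgeR adjusted p = 0.0114), *GLI1* and *BOC* (adjusted p = 0.0121) were lost at P5, which left *HHIP* and *GLI3*, and *PTCH1* was also lost there without r2 (adjusted p = 0.0141). At P8 *PTCH1* and *GAS1* were lost without r2 (edgeR adjusted p = 0.0214 and 0.0266) and without r3 (adjusted p = 0.0118 and 0.0508), which left *HHIP*, *GLI3* and *BOC*. In a fit of P8 and t0 alone *GAS1* was lost (edgeR adjusted p = 0.0106) and *GLI1* passed as lower (adjusted p = 0.00515).

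The other GLI genes differed from *GLI1*. *GLI3* had 17.5, 16.4 and 16.9 TPM at t0, 25.2, 6.62 and 7.37 TPM at 36 h and 18.3, 32.8 and 45.5 TPM at P2. It went on to 99.8, 66.3 and 76.8 TPM at P5 and 152, 109 and 112 TPM at P8, and every library from P4 onward was above every library up to P3. The step from P2 to P5 was 1.19 (log2, SE 0.33, edgeR adjusted p = 0.0286) and did not pass, while against t0 *GLI3* rose by 2.25 at P5 (SE 0.34, edgeR adjusted p = 1.19e-05) and by 2.90 at P8 (SE 0.35, adjusted p = 5.19e-07). *GLI2* had 17.6, 19.4 and 18.5 TPM at t0 and its lowest mean between t0 and P8 at P1, with 16.2, 2.88 and 5.96 TPM. It was back at 22.0, 29.5 and 15.0 TPM by P5, where its log2 difference was 1.49 from P2 (SE 0.43, edgeR adjusted p = 0.0348) and 0.18 from t0 (SE 0.42, adjusted p = 0.754). On the TPM scale, *GLI3* had a mean of 81.0 (SD 17.1, n = 3) at P5, against 22.1 (SD 7.26) for *GLI2* and 2.62 (SD 0.644) for *GLI1*, whereas at t0 the means were 16.9 (SD 0.555), 18.5 (SD 0.900) and 9.54 (SD 0.881).

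The co-receptor genes *BOC* and *GAS1* first passed in later comparisons. *BOC* had 6.22, 7.0 and 6.38 TPM at t0, 6.10, 4.50 and 24.2 TPM at P2, 28.1, 54.9 and 89.3 TPM at P5 and 43.9, 47.6 and 65.1 TPM at P8. It was the only gene of the 9 to pass at P5 against P2, with a rise of 2.60 (log2, SE 0.60, edgeR adjusted p = 0.00956), where 1.37% of all genes tested passed and 0.818% rose. This call was close to the threshold and was lost without r2 (adjusted p = 0.207), without r3 (0.113), without the replicate block (0.0244) and in a fit of these groups alone (0.0561). *GAS1* had 4.49, 3.24 and 5.39 TPM at t0, 8.36, 15.1 and 25.1 TPM at P5 and 10.7, 16.5 and 56.3 TPM at P8. It rose at P8 against t0 by 2.23 (log2, SE 0.59, edgeR adjusted p = 0.00297), with r3 far above the other 2 differentiations. *CDON*, a co-receptor related to BOC, also rose at P5 against P2, by 2.15 (SE 0.47, edgeR adjusted p = 0.00664). *SMO*, the signal transducer that PTCH1 restrains, was the steadiest, between 41.2 and 87.6 TPM over all 47 libraries. Within that range it was higher than at t0 in every differentiation at P5 and at P8. The log2 differences were 0.69 (SE 0.09, edgeR adjusted p = 9.18e-07) and 0.705 (SE 0.09, adjusted p = 5.64e-07), under the fold change minimum.

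None of the 9 genes passed between t0 and 36 h or between P5 and P8. At 36 h against t0, 0 of 9 passed with edgeR, 0 had an unadjusted p under 0.05 and DESeq2 called 0, while 2.71% of all genes tested passed and 26.1% had such a p. *PTCH1* was at 0.64 (log2, SE 0.65) and *HHIP* at 0.95 (SE 1.52) there. At P8 against P5, 0 of 9 passed with edgeR, 0 had an unadjusted p under 0.05 and DESeq2 called 0, while 0.0092% of all genes tested passed and 13.3% had such a p. *HHIP* was at 0.72 (log2, SE 0.95) between these passages and *PTCH1* at -0.19 (SE 0.65).

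**Figure D3:**
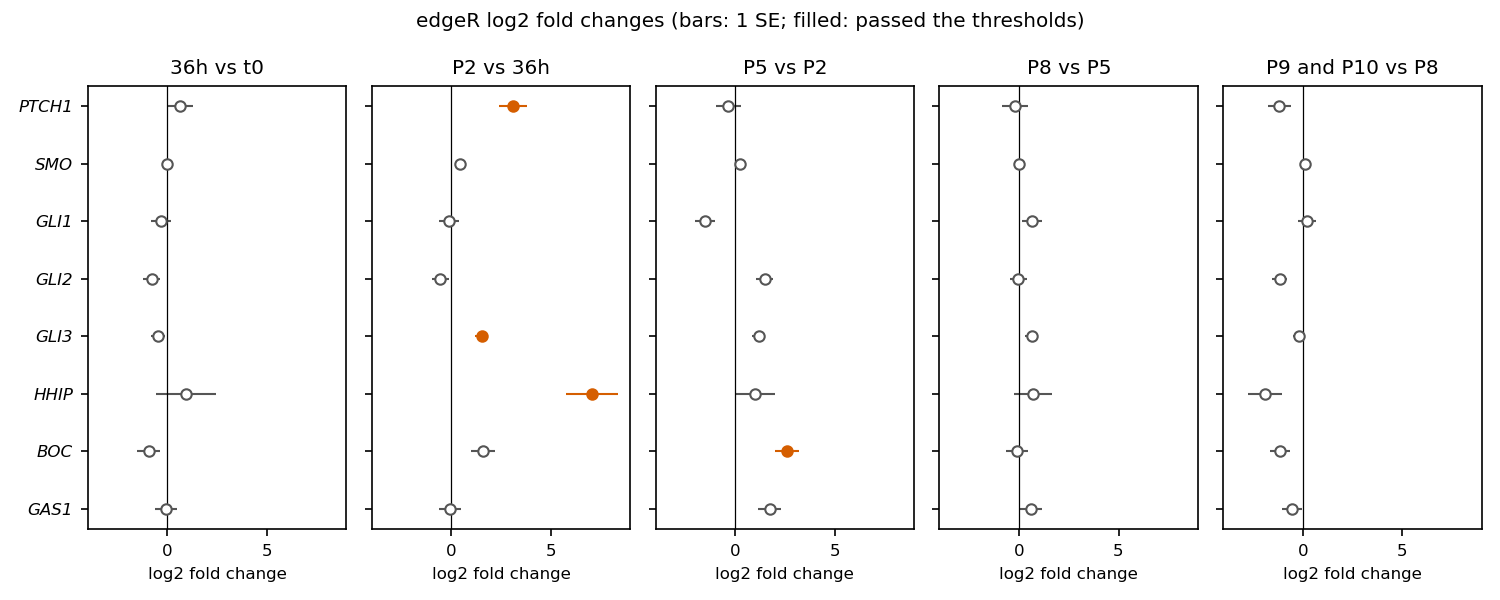
edgeR log2 fold changes (points) with 1 SE (bars) of 8 of the 9 genes in 5 comparisons of whole cultures; filled points passed the thresholds. *HHIP* at 7.07, *PTCH1* at 3.10 and *GLI3* at 1.53 are filled at P2 against 36 h and *BOC* at 2.60 at P5 against P2.

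In late cultures the levels came apart between differentiations. At P9 *PTCH1* had 22.9 TPM in r1 and 96.4 TPM in r2, and at P10 it had 106.8, 18.9 and 22.7 TPM. *HHIP* had 11.9 and 90.9 TPM at P9 and 46.2, 26.8 and 3.34 TPM at P10, so *HHIP* and *PTCH1* were lower in P9.r1 than in P9.r2 and higher in P10.r1 than in the other P10 libraries. The 7 NC markers were *SOX10*, *SOX9*, *SNAI1*, *SNAI2*, *TWIST1*, *TFAP2A* and *FOXD3*. They summed to 1084 and 1020 TPM at P9 and to 182, 885 and 960 TPM at P10, against 110 to 550 TPM at P8. Only 4 of the 7 had a positive log2 fold change at P9 and P10 against P8, so the list did not rise as a whole. The 5 PNP markers summed to 16.5 and 16.7 TPM at P9, to 427 TPM in P10.r1 and to 7.35 and 5.24 TPM in P10.r2 and P10.r3. The 5 limb or lateral plate markers summed to 242 to 302 TPM at P8 and to 408 and 494 TPM at P9. At P10 they summed to 276, 485 and 540 TPM in r1 to r3. P10.r1 was therefore nearer to P8 on each of these lists. The part of cell composition in the levels of *PTCH1* and *HHIP* was not tested.

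Against P8, P9 and P10 gave 0 of 9 genes past the thresholds with edgeR, with 1.25% of all genes tested passing. For 4 of the 9, all with lower values, the unadjusted p was under 0.05, as it was for 26.2% of all genes tested, and DESeq2 called 0. *HHIP* was at -1.91 (log2, SE 0.84, edgeR adjusted p = 0.145), *PTCH1* at -1.19 (SE 0.57, adjusted p = 0.189), *BOC* at -1.14 (SE 0.51, adjusted p = 0.149) and *GLI2* at -1.17 (SE 0.38, adjusted p = 0.0467). Without P10.r1 *HHIP* was at -2.79 (edgeR adjusted p = 0.0190) and *PTCH1* at -1.67 (adjusted p = 0.0406), which did not pass either. *GLI1* depended on a single library. It had 16.4 TPM in P9.r1, the highest of all 47 libraries, and 1.23 TPM in P9.r2, the lowest. With P9.r1 its difference from P8 was 0.21 (log2, SE 0.46, edgeR adjusted p = 0.827), and without that library it was -1.34 (adjusted p = 0.00964) and passed. Without the whole of r1, *GLI1* was at -1.43 (edgeR adjusted p = 0.00231) and *BOC* at -2.04 (adjusted p = 0.00561), and both passed.

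The fractions put the target genes on different sides at P5. *HHIP* had 77.6, 53.0 and 48.5 TPM in the P5 EPI fraction of r1 to r3 and 181, 92.2 and 71.6 TPM in the MES fraction, higher in MES in 3 of 3 pairs, although the ranges overlap. *PTCH1* had 222, 137 and 129 TPM in EPI and 148, 70.7 and 52.9 TPM in MES, lower in MES in 3 of 3 pairs. *GLI1* had 3.43, 3.85 and 2.62 TPM in EPI and 2.59, 1.26 and 2.19 TPM in MES, and was likewise lower in MES in 3 of 3. None of the 8 genes tested passed with edgeR, nor did any of the 18885 genes tested (0.0%), although for 5 of the 8, and for 25.9% of all genes tested, the unadjusted p was under 0.05. *PTCH1* was at -0.85 (log2, SE 0.19, edgeR adjusted p = 0.0364), *GLI1* at -0.76 (SE 0.16, adjusted p = 0.0314) and *GLI2* at -1.01 (SE 0.38, adjusted p = 0.134). *HHIP* was at 1.17 (SE 0.44, edgeR adjusted p = 0.140) and *GAS1* at 1.45 (SE 0.41, adjusted p = 0.0680). DESeq2 called 1 of the 8, *GAS1* (log2 1.44, adjusted p = 0.00407), and 674 genes in all.

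At P8 the fractions were closer together. *HHIP* had 89.5, 268 and 147 TPM in EPI and 104, 171 and 121 TPM in MES, higher in MES in 1 of 3 pairs. *PTCH1* had 175, 140.3 and 131 TPM in EPI and 149, 120.0 and 112 TPM in MES, lower in MES in 3 of 3. *GLI1* and *GLI2* were also lower in MES in each pair. The log2 differences of normalized counts were -0.24, -0.26 and -0.41 for *GLI1* and -0.26, -0.41 and -0.42 for *GLI2*. With edgeR 0 of 8 passed, for 1 of them (*GAS1*, log2 1.32, SE 0.43, adjusted p = 0.324) the unadjusted p was under 0.05, and DESeq2 called 0 of 8, while 0.0% of all genes tested passed and 12.0% had such a p. *HHIP* was at -0.27 (SE 0.44, edgeR adjusted p = 0.844) and *PTCH1* at -0.32 (SE 0.19, adjusted p = 0.539). The change of the difference between fractions from P5 to P8 was -1.44 for *HHIP* (log2, SE 0.62, unadjusted p = 0.0464 and edgeR adjusted p = 0.816). No gene of the 8 passed that test (0.0% of all genes tested), *HHIP* was the only one with an unadjusted p under 0.05 (6.1% of all genes), and DESeq2 called 0.

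The enrichment of the fractions was itself uneven. At P5 the 7 NC markers summed to between 73.1 and 282 TPM in EPI and between 438 and 628 TPM in MES, and the 5 PNP markers to between 464 and 721 TPM in EPI and between 87.4 and 255 TPM in MES, so the fractions did not overlap on either list. At P8 the NC sums were 87.6 to 617 TPM in EPI and 247 to 912 TPM in MES, and the PNP sums were 185 to 645 TPM and 51.8 to 446 TPM, which overlap, although within each differentiation MES had the higher NC sum and the lower PNP sum. By edgeR's log2 fold changes, 7 of the 7 NC markers were higher in MES at P5 and 5 at P8. Of the 5 PNP markers 0 were higher in MES at P5 and 1 at P8. The 5 limb or lateral plate markers summed to 188 to 269 TPM in EPI and 304 to 396 TPM in MES at P5, again without overlap. *TBX5* had 3 counts or fewer in every library of both P5 fractions. At P8 the sums overlapped, with 230 to 384 TPM in EPI and 250 to 391 TPM in MES. The part of these lists in the differences at P5, and in the smaller ones at P8, was not tested.

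**Figure D4:**
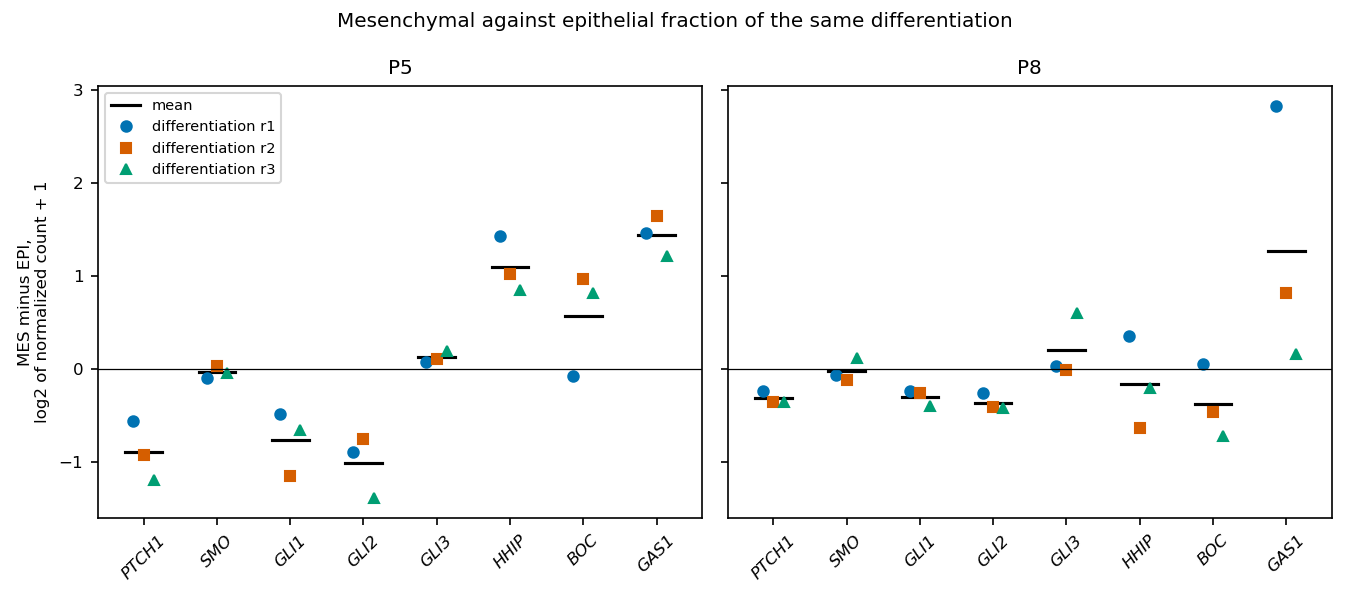
MES minus EPI of the same differentiation, as log2 of the normalized count + 1, for 8 genes at P5 and P8; symbols are the 3 differentiations and black bars the means. At P5 *HHIP* and *GAS1* lie above 0 and *PTCH1*, *GLI1* and *GLI2* below 0 in all 3 differentiations, and at P8 the values of *HHIP* lie on both sides of 0.

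To ask whether *HHIP* moved with the other targets, its ratio to *PTCH1* and to *GLI1* was taken in each fraction library, as log2 of normalized counts + 1. At P5 the log2 ratio of *HHIP* to *PTCH1* was -2.16, -1.98 and -2.04 in EPI and -0.18, -0.04 and 0.01 in MES, higher in MES in every pair. At P8 it was -1.50, 0.60 and -0.46 in EPI and -0.91, 0.32 and -0.32 in MES. Over the 6 pairs the ratio was higher in MES by 1.07 (SD 1.05), in 5 of 6 pairs, with an exact two-sided permutation p = 0.0938 (adjusted p = 0.0938 over the 2 ratios, smallest possible p = 0.0313). The 6 pairs come from 3 differentiations and are not independent. With both passages of a differentiation swapped together, a test added after the values were seen, the exact permutation p was 0.25 for either ratio, which is the smallest that 3 differentiations can give. For *HHIP* to *GLI1* the difference was 1.00 (SD 1.01), again in 5 of 6 pairs, with an exact permutation p = 0.0938. On TPM + 0.1 the mean differences were 0.895 and 0.813, and each ratio was higher in MES in 4 of 6 pairs. At P5 alone the differences were 1.99 (SD 0.051, n = 3 pairs) and 1.86 (SD 0.333), where no p under 0.25 is possible, and at P8 alone 0.15 (SD 0.435) and 0.14 (SD 0.485). A difference in either ratio over both passages was thus not shown, and the spread at P8 was wider than at P5.

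Over the 47 libraries, log2 normalized counts of *HHIP* had a Pearson correlation of 0.685 with *PTCH1* and of -0.655 with *GLI1*. Spearman's coefficients were 0.41 and -0.48. Without the 6 libraries of t0 and 36 h, the 41 that remained gave 0.23 and -0.42. Within single differentiations of whole cultures (11 or 12 libraries) the values ran from 0.63 to 0.79 for *PTCH1* and from -0.76 to -0.51 for *GLI1*. These libraries share cultures and fall into stages, so the coefficients are descriptions only, and the one with *PTCH1* was small once t0 and 36 h were left out.

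**Figure D5:**
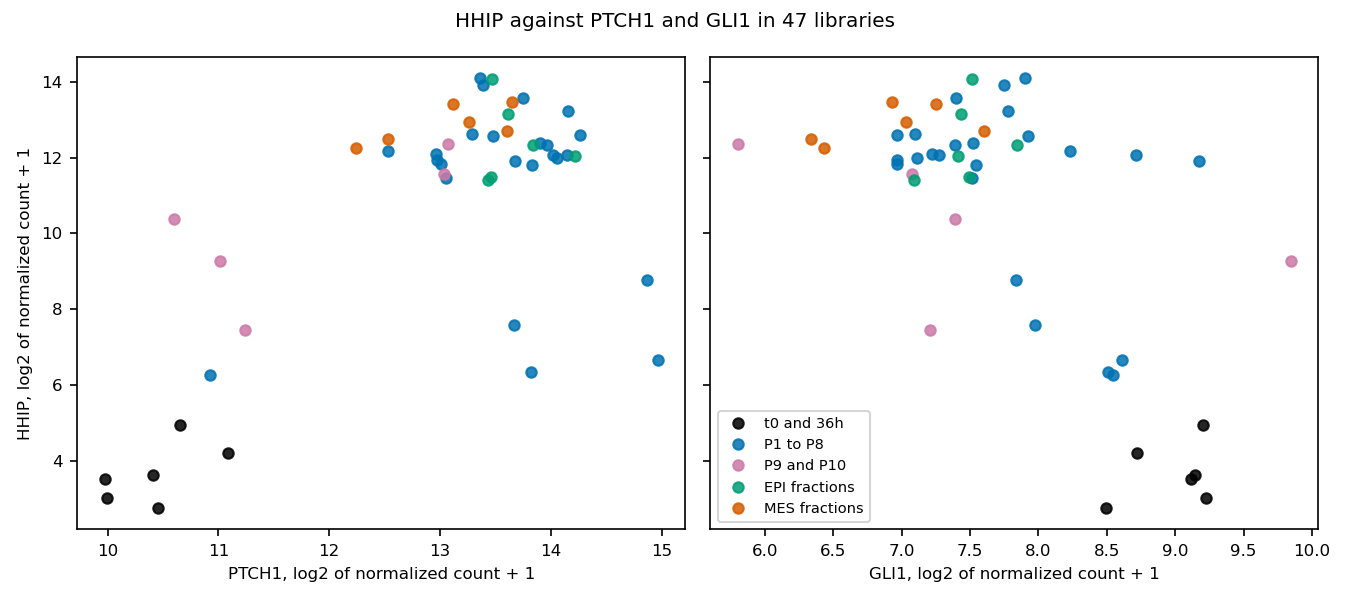
*HHIP* against *PTCH1* (left) and *GLI1* (right), both axes in log2 of the normalized count + 1, with 1 point per library and colors for stages and fractions. The t0 and 36 h libraries are low for *HHIP* and *PTCH1* and high for *GLI1*, and the P1 to P8 libraries with low *HHIP* include some with the highest *PTCH1*.

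Among 13296 genes averaging 100 normalized counts or more, the genes whose log2 pattern over the 47 libraries was most like that of *HHIP* were *HHIP-AS1* (Pearson r = 0.98), *MYO16* (0.94), *SOX6* (0.94) and *SOX5* (0.93). *GLI3* ranked 117 in that order (r = 0.87), *BOC* 551 (0.78), *SMO* 623 (0.77), *PTCH1* 1258, *GAS1* 2082 (0.59), *GLI2* 5041 (0.22) and *GLI1* 11782. By this measure *GLI3* was nearer to *HHIP* than its fellow targets were. The genes most like *GLI1* were *EIF2S3* (r = 0.875), *NAT9* (0.842), *CCNB1IP1* (0.840), *BCAM* (0.835) and *RIPK2* (0.821), with *PTCH1* at rank 10715 (-0.43) and *HHIP* at rank 12919.

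*HHIP-AS1* is transcribed from the opposite strand at chr4:144642922-144661357 and overlaps the first part of *HHIP*. It had a mean of 0.227 TPM (SD 0.035, n = 3) at t0, 10.5 TPM (SD 6.66) at P2 and 27.3 TPM (SD 6.06) at P8, and it rose at P2 against 36 h by 4.25 (log2, SE 0.72, edgeR adjusted p = 0.000183). In the P5 fractions it was level, with a mean of 16.4 TPM in both EPI (SD 4.60) and MES (SD 5.33) and a log2 difference of 0.02 (SE 0.24, edgeR adjusted p = 0.973). Whether reads were counted by strand is not given in the sources used here, so where the genes overlap their reads cannot be told apart with certainty.

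Of 30 other genes of the pathway 28 could be tested. At P2 against 36 h 3 of them rose and none fell, *SCUBE3* (a secreted helper of ligand release, log2 2.70), *GPC3* (a glypican that binds ligand, 2.55) and *GPR161* (a cilium receptor that holds the pathway down, 2.00), with a median of 0.36 over the 28, beside 2.6% of all genes that rose. At P5 against P2 only *CDON* passed (1.37% of all genes), and at P9 and P10 against P8 (1.25% of all genes) only *LRP2*, a ligand-binding endocytic receptor, which fell by 4.69 (log2, SE 0.83, edgeR adjusted p = 0.00234). At P5 against t0 5 of the 28 rose and 1 fell, beside 6.44% and 7.85% of all genes, with *SCUBE3* up by 3.93 (log2, SE 0.45, edgeR adjusted p = 2.5e-07), *HHAT* up by 2.70 (SE 0.22, adjusted p = 1.84e-09) and *EVC2*, a cilium component needed for the response to SMO, down, with a log2 fold change of -2.75 (SE 0.44, adjusted p = 2.15e-05). At P8 against t0, where 15.4% of all genes passed and 7.66% rose, 9 rose and 1 fell, led by *SCUBE3* (4.44), *SCUBE2* (3.48) and *HHAT* (3.45). *SUFU*, which holds GLI proteins back in the cytoplasm, rose at P8 against t0 by 1.01 (SE 0.17, edgeR adjusted p = 3.4e-05).

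Of 14 genes that respond to Hedgehog signaling in other tissues 12 could be tested, and they did not share a direction. At 36 h against t0, where 2.71% of all genes passed, *NKX6-1*, a ventral neural tube factor, rose by 6.24 (log2, SE 0.87, edgeR adjusted p = 3.75e-05), while *SFRP1* fell by 4.01 (SE 0.66, adjusted p = 0.000269) and *MYCN* by 1.09 (SE 0.26, adjusted p = 0.00613). At P2 against 36 h, where *PTCH1* and *HHIP* rose, 0 of the 12 passed with edgeR, although 7 (and 36.7% of all genes) had an unadjusted p and 6 (and 5390 of all 21750 genes) an adjusted p under 0.05, and DESeq2 called 2 (and 1543 of all genes). The median log2 fold change of the 12 was 0.99 there, with 8 of them positive. At P5 against t0 (14.3% of all genes passed) *NKX6-1* (log2 6.14, SE 0.86, edgeR adjusted p = 4.46e-06) and *BCL2* (2.97, SE 0.36, adjusted p = 5.1e-07) rose. *SFRP1* fell by 4.36 (log2, SE 0.67, edgeR adjusted p = 1.31e-05), as did *OLIG2*, the motor neuron progenitor factor, named here after its values were seen, by 2.45 (SE 0.47, adjusted p = 0.000164). At P8 against t0 (15.4% of all genes passed) 4 of the 12 passed, 2 as higher and 2 as lower. *NKX6-1* was not among them. Of 10 genes of the primary cilium, where the pathway is transduced, 2 rose at P2 against 36 h, where 2.6% of all genes rose, *IFT88* by 1.18 (SE 0.18, edgeR adjusted p = 7.35e-05) and *TCTN1* by 1.53 (SE 0.35, adjusted p = 0.00262). None fell, and all 10 had positive log2 fold changes, with a median of 0.51. Over all genes the median was about 0.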

How the data were processed

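Libraries of WA09 cells were polyA-selected, single-end and not pooled. Per the submitters' processing notes, cutadapt 1.16, STAR 2.5.2b, RSEM 1.3.0 and GRCh38 were used, and the annotation release and strand setting are not given in the sources used here. The authors deposited RSEM expected counts, TPM and FPKM per gene, and FPKM was not used. RSEM divides reads between genes they could come from, so 6.96% to 10.2% of the count values of a library were not whole. Of 58051 genes, 57447 were matched to a symbol, taken from a list of current gene names with gaps filled from GENCODE 29.

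Expected counts were rounded and tested with edgeR 4.0.16 (TMM, filterByExpr, quasi-likelihood F-test) in R 4.3.3 with the replicate number as a block, in 1 fit of the 35 whole cultures and 1 of the 12 fractions, with DESeq2 1.42.0 as an alternative. The pairing comes from the study design, in which each experiment was followed through the time points (no P9 library of r3 was analysed here). Deviations of same-numbered samples correlated at 0.65 (P5 fractions) and 0.78 (P8 fractions), and between -0.11 and 0.31 on average in the whole cultures. Nothing says that cultures of a number shared more than the experiment, so p-values measure the spread between these libraries. No replicates differed by less than sampling noise. Ratios used normalized counts + 1 and an exact permutation test. Members and gene lists were chosen with earlier results of these data known, and 3 of 11 comparisons (P1 against 36 h, P5 and P8 against t0) were added after their values were seen. All 9 members were named, and of the other lists relatives of members and the 3 genes with the largest change among those that passed. Genes of the cell type marker lists were also named where their sums are given. The fifth gene in the order of likeness to *HHIP* and 1 gene of the pathway list are not reported here. Scripts were tested on simulated data.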

Additional observations from a re-analysis of the deposited data

How the results depend on the processing

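With the same-numbered replicates taken as pairs in a replicate block, 0 of the 9 genes passed at 36 h against t0, 3 at P2 against 36 h, 1 at P5 against P2, 0 at P8 against P5, 0 at P9 and P10 against P8 and 0 in the fractions. With no replicate block the count at P5 against P2 was 0 and no other count changed, and in all genes that comparison gave 225 calls against 298 with the block and P9 and P10 against P8 gave 37 against 271. At P5 against P2 DESeq2 gave 3 (*GLI2*, *GLI3* and *BOC*), an FDR under 5% gave 3, and all 47 libraries in 1 fit gave 2. A fit of the compared groups only gave 0 at P2 against 36 h, at P5 against P2 and at P1 against 36 h. An FDR under 5% gave 1 (*GLI2*) at P9 and P10 against P8, and without P9.r1, tried after its value was seen, that comparison gave 1 (*GLI1*, -1.34). No minimum of the fold change gave 2 at P1 against 36 h (*SMO* and *PTCH1*), and DESeq2 gave 1 (*GAS1*) between the P5 fractions. With no such minimum *SMO* was also gained at P2 against 36 h and at P5 and P8 against t0. *GAS1* was gained at P5 against t0 with DESeq2, with the compared groups only and at an FDR under 5%. *GLI1* was gained as lower at P8 against t0 at an FDR under 5%. With each differentiation left out in turn the counts ran from 0 to 1 at 36 h against t0 (*GLI3* without r1), from 0 to 4 at P2 against 36 h, from 0 to 2 at P5 against P2, from 0 to 2 at P9 and P10 against P8 (*GLI1*, -1.43, and *BOC* without r1), from 0 to 1 at P1 against 36 h, from 2 to 5 at P5 against t0 and from 3 to 6 at P8 against t0. These lost calls have fewer libraries in the fit, and otherwise the cause was not tested. Of 1234 log2 fold changes of single genes under alternatives, 1158 kept their direction and side of the thresholds, 21 passed only under the alternative, 25 passed only as reported and 30 changed sign. None of those 30 passed as reported, and 2 passed under the alternative, both of *GLI1* at P9 and P10 against P8. With a differentiation or library left out, the values that changed sign had these ranges. At 36 h against t0 *SMO* ran from -0.024 to 0.009 and *GAS1* from -0.446 to 0.35. At P2 against 36 h *GLI1* ran from -0.429 to 0.365 and *GAS1* from -0.286 to 0.276, and at P1 against 36 h *GAS1* from -0.836 to 0.333. At P5 against P2 *PTCH1* ran from -0.887 to 0.002 and *HHIP* from -0.198 to 1.725. At P8 against P5 *SHH* ran from -1.219 to 1.28, *SMO* from -0.022 to 0.065, *GLI2* from -0.386 to 0.62, *HHIP* from -0.063 to 1.409 and *BOC* from -0.306 to 0.142. At P9 and P10 against P8 *SHH* ran from -0.864 to 0.673, *GLI1* from -1.43 to 0.606 and *GLI3* from -0.433 to 0.005. Against t0 *SHH* ran from -0.221 to 3.041 and *GLI2* from -0.098 to 0.379 at P5, and *GLI2* from -0.168 to 0.522 at P8. In the P8 fractions *SMO* ran from -0.084 to 0.02, and in the change of the fraction difference *SMO* ran from -0.065 to 0.082, *GLI3* from -0.086 to 0.178 and *GAS1* from -0.922 to 0.317. The other sign changes were *SMO* at 36 h against t0 (0.002) and *GLI2* at P8 against P5 (0.035) with the compared groups only, *GAS1* at 36 h against t0 (0.167) and *GLI2* at P8 against P5 (0.074) with no replicate block, and *GLI2* at P8 against P5 (0.009) with all 47 libraries in 1 fit. The mean ratios of *HHIP* to *PTCH1* and *GLI1* were higher in MES under every alternative tried, by 0.14 to 1.99. The adjusted p of the permutation test was 0.055 without pairing and 0.0938 to 0.156 under the settings that kept all 6 pairs apart. With a differentiation left out, at 1 passage alone or with labels swapped by differentiation, the smallest possible p was 0.125 or 0.25, so these settings could not pass. Replacing TMM factors with DESeq2's moved the median of all genes by at most 0.04 on the log2 scale.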
